A study of Ambystoma mexicanum with 5 samples.

Results

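The Cyp2a rows are 4 entries of the axolotl gene count table that have neighbouring identifiers. They are AMEX60DD008880, which the study's gene lists pair with the symbol CYP2A6, AMEX60DD008883 and AMEX60DD008884, which both carry CYP2A13, and AMEX60DD008885, which has no symbol and follows them directly. They are 4 of the 99088 genes listed and 4 of the 20875 genes that passed the filter on low counts. All 4 passed that filter. AMEX60DD008885 is counted among the Cyp2a rows for its neighbouring identifier and its listing by the study. It has no symbol to link it to them, and whether it is a Cyp2a gene was not tested. The rows were chosen by their counts in these same libraries, in which the study lists them as higher in posterior dermis, so their differences between positions are given as a description, without a test.

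Gene expression was measured in dermal connective tissue cells from the skin of the uninjured lower forelimb of the axolotl (Ambystoma mexicanum), in 2 anterior and 3 posterior libraries. Animals of both groups carried the same pair of transgenes (tgSceI, line Etnka). In one, a mouse Prrx1 enhancer (Mmu.Prrx1) drives the nuclear fluorescent protein TFPnls and, behind a self-cleaving peptide, the inducible recombinase ERT2-Cre-ERT2, and in the other Caggs drives a GFP flanked by loxP sites and followed by mCherry. The animals received 4-hydroxytamoxifen as embryos, which turns on the recombinase so that Prrx1-lineage cells change from GFP to mCherry for good, and were grown to 12 cm. The libraries hold mCherry-positive cells sorted by FACS from the anterior or the posterior piece of the skin. Each replicate pooled 8 axolotls (16 lower arms), and whether replicates, or the anterior and posterior samples, came from different animals is not given in the sources used here. In such bulk samples, fewer cells of a type and less RNA per cell cannot be told apart.

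Cytochrome P450 enzymes are haem proteins that insert oxygen into small molecules such as steroids, fatty acids, drugs and plant compounds. The mammalian CYP2A enzymes form a family of near-identical copies that often lie side by side in the genome. In humans, CYP2A6 is a liver enzyme best known for breaking down nicotine and coumarin, and CYP2A13 works mainly in the respiratory tract, where it activates tobacco nitrosamines. The axolotl symbols are those of the human homologue or of the closest homologue the authors found, and the enzymes' substrates in axolotl skin are not known from these data.

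Copies of this kind can share reads. Reads were mapped with up to 5 alignments allowed per read, and the way reads with several alignments were counted is not given in the sources used here. Values of single rows are therefore uncertain to the extent that a read from one copy was counted on another, and the sum over the 4 rows is given beside them. Levels are given in CPM, the count of a row scaled to the TMM-adjusted size of its library. The libraries were made from 20.25 ng of RNA by a method that reads the 3′ end of each transcript, so that a level does not depend on transcript length. Library totals ran from 44317956 to 59062548 counts, and 3 counts correspond to between 0.0511 and 0.0669 CPM.

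AMEX60DD008883 (CYP2A13) was the most abundant of the 4 rows in every library. Its counts were 1057 and 763 in anterior and 3717, 3759 and 4628 in posterior libraries, which are 23.6 and 14.9 CPM against 63.4, 64.2 and 86.1 CPM. All posterior libraries were above both anterior ones, and posterior replicate 3 was the highest. Anterior cells averaged 19.3 ± 6.11 CPM (SD, n = 2), posterior cells averaged 71.2 ± 12.9 CPM (SD, n = 3), and the means differed 3.70-fold. The fitted log2 fold change was 1.89 (SE 0.25). The row was thus well expressed at both positions. Its mean lay at percentile 76.97 of the tested genes in anterior cells and at percentile 92.5 in posterior cells.

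AMEX60DD008884, the other row named CYP2A13, was close to the limit of detection in anterior cells. Its counts were 2 and 26 in anterior and 791, 416 and 868 in posterior libraries, or 0.0446 and 0.509 CPM against 13.5, 7.10 and 16.1 CPM. Anterior replicate 1 was below the level of 3 counts, and the lowest posterior library was 14.0-fold above the higher anterior one. Anterior cells averaged 0.277 ± 0.329 CPM (SD, n = 2) and posterior cells 12.2 ± 4.64 CPM (SD, n = 3), 44.2-fold apart, and the fitted log2 fold change was 5.42 (SE 0.81). The anterior libraries set the size of this value. The log2 fold change was 8.03 without anterior replicate 2 and 4.58 without anterior replicate 1.

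AMEX60DD008885, the row without a symbol, was detected at both positions. Its counts were 50 and 28 in anterior and 582, 511 and 459 in posterior libraries, which are 1.12 and 0.548 CPM against 9.92, 8.73 and 8.54 CPM. The posterior libraries lay close together, differing by no more than 1.16-fold, and none overlapped the anterior ones. Anterior cells averaged 0.832 ± 0.401 CPM (SD, n = 2) and posterior cells 9.06 ± 0.750 CPM (SD, n = 3), 10.9-fold apart, and the fitted log2 fold change was 3.45 (SE 0.50). The fold change was 4.04 on the log2 scale without anterior replicate 1 and 3.02 without anterior replicate 2.

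AMEX60DD008880 (CYP2A6) was all but absent from the anterior libraries. Only 1 and 0 counts were seen there, against 265, 134 and 31 in posterior cells, or 0.0223 and 0 CPM against 4.52, 2.29 and 0.577 CPM. Posterior replicate 1 was 7.83-fold above posterior replicate 3, and even the latter was 25.8-fold above the anterior library with 1 count. Group means were 0.0112 ± 0.0158 CPM (SD, n = 2) for anterior against 2.46 ± 1.98 CPM (SD, n = 3) for posterior cells. Summed over the libraries of a position and scaled by library size, the posterior level was 241 times the anterior one, with a 95% exact counting interval from 43.0 to 9546. The interval is wide because it rests on 1 anterior count. Molecular identifiers are not described for these reads. This and the other counting intervals treat each read as independent. They cover neither duplicate reads nor the spread between libraries. The fitted log2 fold change of 7.57 (SE 1.76) depends on the small count that the fit adds and is no bound.

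**Figure D1:**
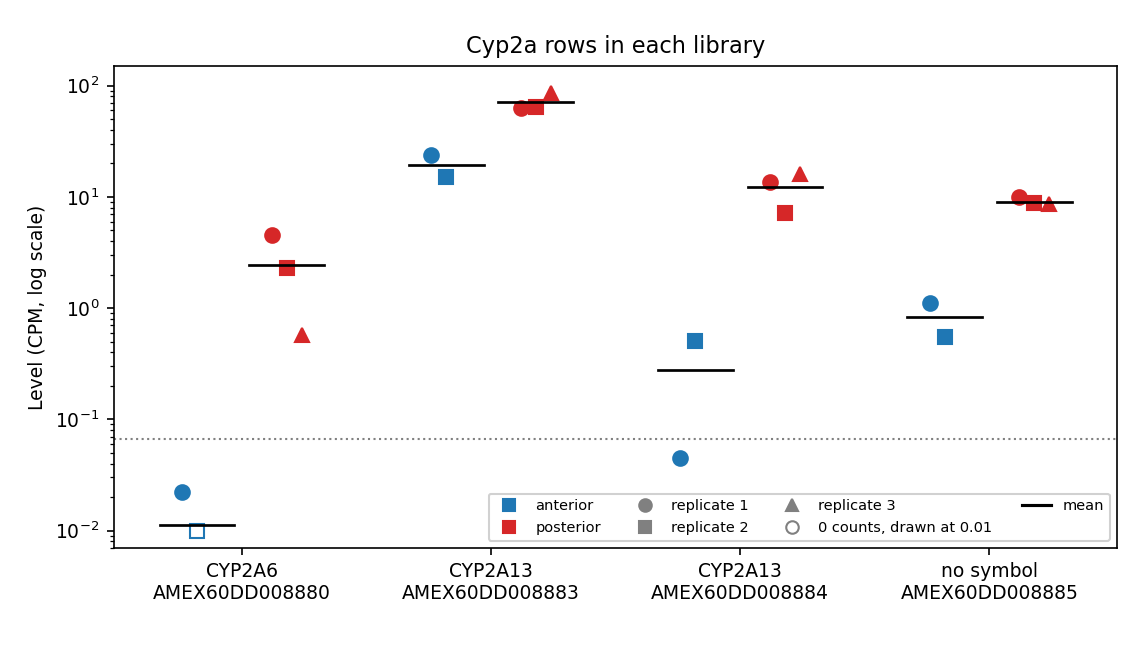
Level of each Cyp2a row in CPM (log scale) in the anterior (blue) and posterior (red) libraries, with the marker shape giving the replicate, the black line the group mean and the dotted line the highest level that 3 counts correspond to (0.0669 CPM). The posterior points of every row lie above its anterior points, and the anterior points of AMEX60DD008880 and 1 anterior point of AMEX60DD008884 lie below the dotted line.

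In each of the 4 rows the posterior libraries did not overlap the anterior ones, as was the case for 10.5% of all genes tested in this direction. In edgeR's quasi-likelihood test, adjusted over all genes and read at 0.01, 1 Cyp2a row was called higher in posterior cells (AMEX60DD008883), against 0.12% of all genes. At a rate of 0.05 there were 3 rows, against 0.263% of all genes, and CYP2A6 was the row left out. With DESeq2 at 0.01, the rule by which the study chose its list, all 4 rows were called, against 0.738% of all genes. These counts follow from how the rows were chosen and nothing is read from them. The edgeR count at 0.01 was 0 whichever posterior library was left out, and 3 without anterior replicate 1. Recomputed here with DESeq2, the member nearest the limit of the rule was AMEX60DD008880 at an adjusted p of 0.00152, and the nearest neighbouring row beyond it was AMEX60DD008881 at 0.0789.

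The fold change of each row moved mainly with the anterior library that was left out, as the plot of fold changes under each alternative shows. For the CYP2A6 row it was 10.10 on the log2 scale without anterior replicate 1, with a single anterior library at 0 counts, and 6.65 without anterior replicate 2. No alternative turned the direction of a row, which the choice of the rows fixes.

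**Figure D2:**
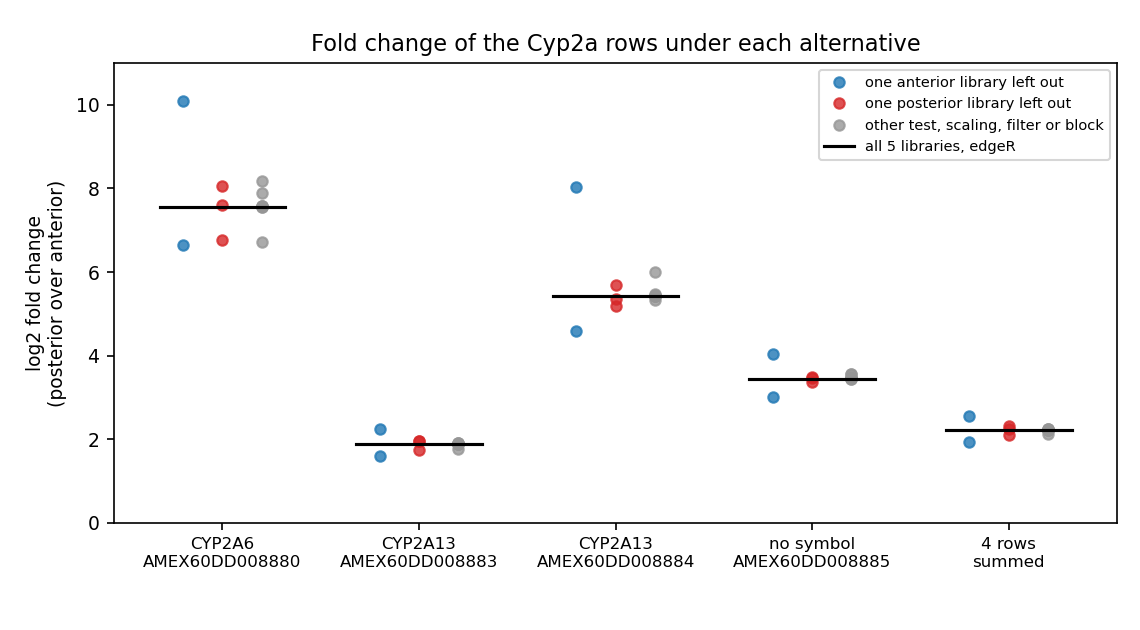
Log2 fold change (posterior over anterior) of each Cyp2a row and of the 4 rows summed, with all 5 libraries in edgeR (black line), with an anterior (blue) or posterior (red) library left out, and with another test, scaling, filter or block (grey). The values of AMEX60DD008883 stay between 1.60 and 2.25, and those of AMEX60DD008884 run from 4.58 to 8.03.

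Together the 4 rows had 1110 and 817 counts in anterior cells against 5355, 4820 and 5986 in posterior cells. A read moved from one of these rows to another does not change this sum, whereas a read counted on several of them would enter it more than once. The summed level was 24.8 and 16.0 CPM in anterior libraries and 91.3, 82.3 and 111 CPM in posterior libraries. The mean was 20.4 ± 6.20 CPM (SD, n = 2) against 94.97 ± 14.9 CPM (SD, n = 3), 4.66-fold apart, and the fitted log2 fold change of the sum was 2.22. Most of the summed counts came from AMEX60DD008883. That row alone averaged 19.3 CPM in anterior and 71.2 CPM in posterior cells, 3.70-fold apart. Where only the rows named CYP2A13 were summed, the log2 fold change was 2.09.

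The rows did not keep a fixed ratio across libraries. AMEX60DD008883 held 95.2% and 93.4% of the summed counts in anterior cells against 69.4%, 78.0% and 77.3% in posterior cells. The exact binomial interval of its highest posterior share ran from 76.8% to 79.2%, which covers the counting error of that library and not the spread between libraries. AMEX60DD008884 held 0.180% and 3.18% in anterior and 14.8%, 8.63% and 14.5% in posterior libraries. AMEX60DD008885 held 4.50% and 3.43% in anterior and 10.9%, 10.6% and 7.67% in posterior libraries. The share of the CYP2A6 row was 0.0901% in anterior replicate 1, and 0 of 817 counts in anterior replicate 2. The exact binomial interval of the latter runs up to 0.450%. The share of CYP2A6 was 4.95%, 2.78% and 0.518% in the posterior libraries. The share of the dominant row was lower in every posterior library than in either anterior one, and the shares of the other 3 rows were higher. The shares use the counts by which the rows were chosen, so this is a description.

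**Figure D3:**
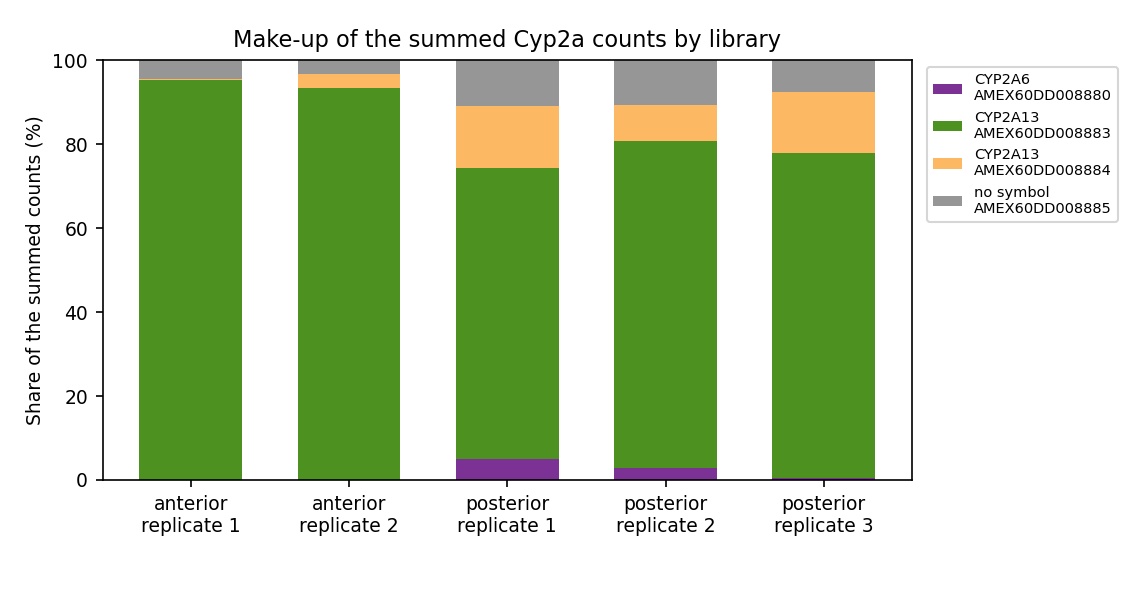
Share (%) of the summed Cyp2a counts held by each of the 4 rows in each library, with the shares of a library adding to the whole. The green part, AMEX60DD008883, fills 93.4% or more of the anterior bars and between 69.4% and 78.0% of the posterior bars.

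The ratios between rows restate these shares. They use the same counts, by which the rows were chosen, so they are a description as well. There were 528.5 and 29.3 counts of AMEX60DD008883 for each count of AMEX60DD008884 in anterior cells, against 4.70, 9.04 and 5.33 in posterior cells. The first of these rests on 2 counts of AMEX60DD008884. The ratio of AMEX60DD008883 to AMEX60DD008885 was 21.1 and 27.3 in anterior libraries and 6.39, 7.36 and 10.1 in posterior libraries. Both ratios were lower in every posterior library than in either anterior one. The part of reads shared between copies in these ratios was not tested.

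The rows did not all rank the posterior libraries in the same order. With 3 posterior libraries, whether rows vary together or apart was not tested. Posterior replicate 1 was highest for CYP2A6 and AMEX60DD008885, which were both lowest in posterior replicate 3, where the rows named CYP2A13 were highest. The count of CYP2A6 for each count of AMEX60DD008884 was 0.335 and 0.322 in posterior replicates 1 and 2 but 0.0357 in posterior replicate 3. The coefficient of variation over the posterior libraries was 80.3% for CYP2A6, 18.1% for AMEX60DD008883, 37.9% for AMEX60DD008884 and 8.28% for AMEX60DD008885. The study's test weighs the difference between positions against the spread within them, so this spread also bore on the choice of rows. Set against the 500 tested genes nearest in mean log2 level over all 5 libraries (499 for CYP2A6), these values lay at percentiles 30.7, 74.2, 40.8 and 4.0, respectively. AMEX60DD008885 was below the median of its comparison genes, 37.4%, and AMEX60DD008883 was above that of its own, 12.5%. The comparison genes were not matched on posterior level, which also affects counting error, so the percentiles are a description.

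The neighbouring identifiers were then examined, from AMEX60DD008870 to AMEX60DD008895. Identifiers are used here as the files give them, and chromosome positions were not used. Of the 22 rows other than the members, 14 had no count in any library and 8 were tested, of which 6 had a higher mean in posterior cells. In edgeR's test 0 of these 8 rows passed at 0.01, against 0.254% of all genes in either direction. At an unadjusted p under 0.05 there were 3 of 8 (TAFA2, AMEX60DD008881 and AMEX60DD008873), against 7.55% of all genes. At 0.01, DESeq2 called 1 row, higher in posterior cells, against 0.738% of all genes called higher. With limma-voom 0 rows were called, against 74 of all genes tested.

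The row DESeq2 called was AMEX60DD008878, with the symbol TAFA2, a secreted chemokine-like protein known mainly from the nervous system. The study lists TAFA2 as well, so it is not an independent neighbour. Its counts were 121 and 53 in anterior and 721, 867 and 694 in posterior libraries, with no overlap and a log2 fold change of 2.84 (SE 0.46, adjusted p = 0.0234 in edgeR). AMEX60DD008881, which follows the CYP2A6 row, had 0 and 1 anterior counts against 67, 42 and 32 posterior counts. All its posterior libraries were higher, and its posterior level over the summed libraries was 79.1 times the anterior one, with an exact counting interval from 14.0 to 3145. The adjusted p of this row in edgeR was 0.646.

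Past the Cyp2a rows, AMEX60DD008889 had no anterior count in either library (0 and 0) against 20, 26 and 20 posterior counts. Against a limit of 3 counts in each anterior library its posterior level was at least 6.14-fold higher, and its adjusted p in edgeR was 0.702. AMEX60DD008886, which follows AMEX60DD008885, overlapped between positions, with 14 and 1 counts against 66, 18 and 145. These are 0.312 and 0.0196 CPM against 1.12, 0.307 and 2.70 CPM. AMEX60DD008888 was uneven among posterior libraries, with 37 and 20 anterior counts against 0, 0 and 179 posterior counts. None of these 3 rows passed in edgeR at 0.01, and 0 of them had an unadjusted p under 0.05.

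From TAFA2 to AMEX60DD008889 there are 12 identifiers, of which 9 had counts. All 9 had a higher mean in posterior cells, and in 7 of them the groups did not overlap, against 10.5% of all genes tested. Of these 7, 4 are the Cyp2a rows and 1 is TAFA2, all listed by the study for this difference, so that most of the run follows from the choice of rows. Of the 5 that are not members, 3 did not overlap, TAFA2 among them. The higher mean of AMEX60DD008888 came from posterior replicate 3 alone. The ends of the run were set with the values known, and the share of all genes with a higher posterior mean was not computed. Before TAFA2, the levels did not share this direction. AMEX60DD008871 had 770 and 547 anterior against 935, 895 and 669 posterior counts, a log2 fold change of 0.06. AMEX60DD008873 was lower in all posterior libraries, with 718 and 836 counts against 619, 607 and 404, a log2 fold change of -0.77 and an adjusted p of 0.491 in edgeR. Reads shared with a Cyp2a row can enter these neighbours if they are further copies, and whether they are was not tested.

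**Figure D4:**
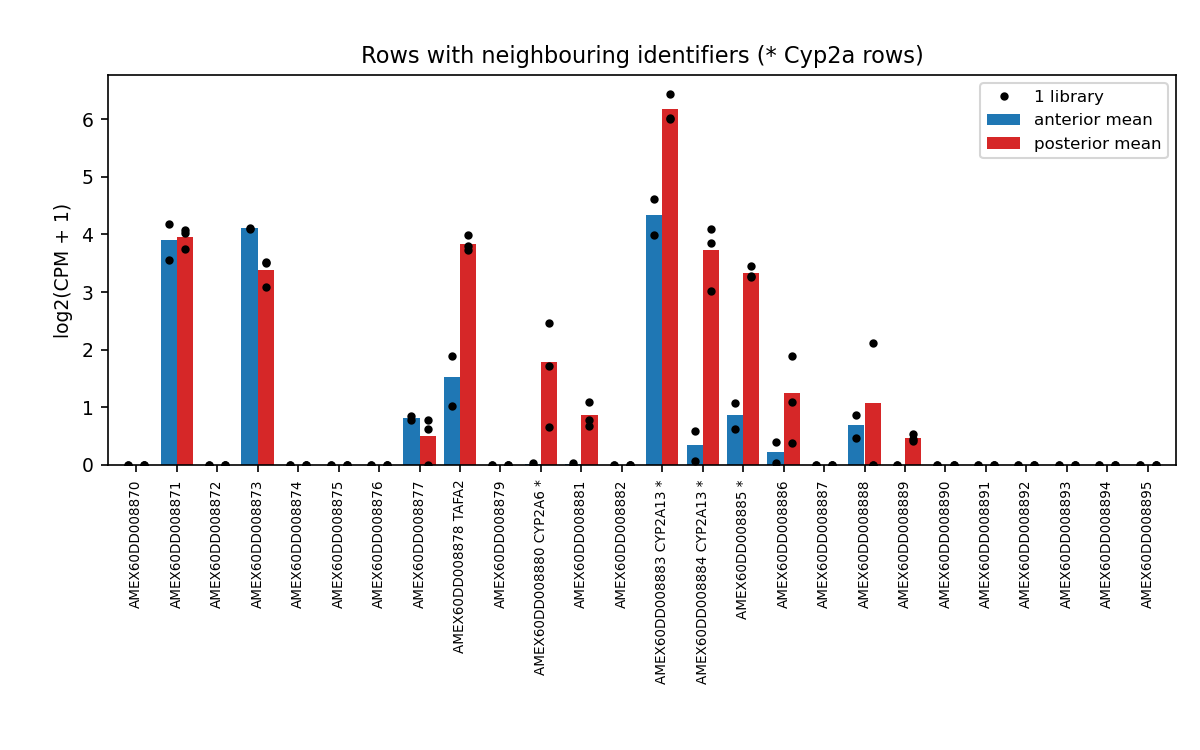
Level as log2(CPM + 1) of the 26 rows from AMEX60DD008870 to AMEX60DD008895, with bars for the anterior (blue) and posterior (red) means and a point for each library. Posterior bars exceed anterior bars in all 9 rows with counts from TAFA2 to AMEX60DD008889, whereas 14 of the 22 rows other than the Cyp2a rows have no count.

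The genes whose profile over the 5 libraries was most like each row were taken from those with a symbol, by the root mean square difference of mean-centred log2 CPM. All symbols come from the study's lists for the same contrast, so that a likeness in the difference between positions is built in. The profile of AMEX60DD008883 was nearest to those of HOXA13, a homeobox factor of the distal limb (difference 0.108), ADAMTS5, a protease that cleaves aggrecan (0.163), and KCNG3, a potassium channel subunit (0.177). HOXA13 had 92 and 81 anterior against 361, 361 and 495 posterior counts, and like AMEX60DD008883 it was highest in posterior replicate 3. The profile of AMEX60DD008885 was near those of its neighbour TAFA2 (0.311), HAND2, a posterior limb transcription factor (0.328), and GREM1, a BMP antagonist (0.357).

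The likeness was looser for the rows with few anterior counts. AMEX60DD008884 was nearest to DTX1, a regulator of Notch signalling (0.770), ADAMTS15, another protease of the same family (0.816), and ZNF10, a zinc finger repressor (0.869). CYP2A6 was nearest to KRT17, an epithelial keratin (0.523), RGS3, a regulator of G protein signalling (0.844), and CAV3, the muscle caveolin (0.894). KRT17 had 0 counts in either anterior library, against 206, 68 and 46 posterior counts, which is the order of CYP2A6. The comparison covers 5 libraries and 20871 genes, and 10 of the 12 named genes were again among the nearest when the added count was 0.5 in place of 2.

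Of the 32 genes listed for the P450 system, 4 had an identifier, in 5 rows. The list holds P450 enzymes, electron donors, receptors and their partners, and enzymes of haem and of further drug metabolism. Symbols exist only for genes in the study's lists, so the other listed genes were not analysed, whatever their level. Of the 5 rows, 1 was called higher and 0 lower at 0.01 in edgeR, against 0.254% of all genes in either direction. The Cyp2a rows that carry a symbol are among these 5 rows. The row called was AMEX60DD008883, and the median log2 fold change of the 5 rows, 1.89, is its own value. The median of all genes tested was -0.02. The study chose these rows on the same samples, so the count is not independent evidence of a direction. The enzymes other than the Cyp2a rows were CYP2F1 and CYP2J2. CYP2F1 (AMEX60DD024521), known in humans as a lung enzyme, had a level of 107 and 118 CPM in anterior and 247, 174 and 197 CPM in posterior libraries. The groups did not overlap, and the log2 fold change was 0.87 (SE 0.17, adjusted p = 0.0624 in edgeR). CYP2J2 (AMEX60DD032906), which makes epoxides from arachidonic acid, was at 4.97 and 3.96 CPM against 12.1, 13.8 and 10.3 CPM, a log2 fold change of 1.44 (SE 0.33, adjusted p = 0.125 in edgeR). CYP2F1 was thus the most abundant P450 row with an identifier at both positions, above AMEX60DD008883, while its fitted log2 fold change was smaller than that of any Cyp2a row. The difference between these fold changes was not tested.

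In a list of 15 further enzymes of oxidation and of steroid, retinoid, lipid and amino acid metabolism, all of which had an identifier because the study calls them on this contrast, 0 were called higher and 2 lower in posterior cells in edgeR at 0.01, against 0.254% of all genes in either direction. The median log2 fold change was -0.68. Members of the list differed in direction. VAT1 was higher in every posterior library, with a log2 fold change of 0.91 (adjusted p = 0.0118 in edgeR). ELOVL1, LIPA, STEAP3 and MTARC1 were also higher, and HGD, DHRS11, QDPR, GPD1, TAT and LPL lower, with none of these called. The enzymes called lower were ALDH1A3, which makes retinoic acid, and PRDX6, a peroxidase. ALDH1A3 had a log2 fold change of -1.62 (adjusted p = 0.00222 in edgeR) and PRDX6 of -1.59 (adjusted p = 0.00246). SRD5A2, the steroid reductase that makes dihydrotestosterone, had a value of -1.16 (adjusted p = 0.0187) and HSD11B1L, a relative of the enzyme that activates glucocorticoids, one of 2.66 (adjusted p = 0.28).

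Markers of other cells were examined beside the Cyp2a rows. Of 11 epidermal markers, 7 had an identifier, in 8 rows, and 3 of these rows were called higher in posterior cells and 0 lower (edgeR at 0.01), against 0.12% of all genes called higher and 0.254% in either direction. The rows called were KRT19 (AMEX60DD038184, log2 fold change 1.72), KRT5 (1.56), the basal keratin, and COL17A1 (1.41), which anchors basal cells. Among the rows not called, the other KRT19 row (AMEX60DD038192) and DSP were also higher in every posterior library. Their log2 fold changes were 2.33 (adjusted p = 0.0721 in edgeR) and 0.70 (adjusted p = 0.199 in edgeR), respectively. The summed level of the 8 rows was 412 and 416 CPM in anterior and 910, 675 and 778 CPM in posterior libraries. Posterior replicate 1 was the highest, as for CYP2A6 and AMEX60DD008885, whereas the rows named CYP2A13 were highest in posterior replicate 3. The sum was lowest in posterior replicate 2, as was AMEX60DD008884. CYP2A6 and AMEX60DD008885 were lowest in posterior replicate 3, and AMEX60DD008883 in posterior replicate 1. Members of the list differed in direction. OCLN, a tight junction protein, was at 94.5 and 119 CPM in anterior and 32.1, 41.1 and 53.9 CPM in posterior libraries, a log2 fold change of -1.33 (adjusted p = 0.0259 in edgeR). KRT17 was at 0 counts in the anterior libraries and KRT18, a simple epithelial keratin, was at 0 in the posterior libraries. Leukocyte markers, 3 of 6 with an identifier, summed to 82.3 and 116 CPM in anterior and 203, 182 and 178 CPM in posterior libraries. These rows (TIMD4, ARHGDIB and CTSS) were each higher in every posterior library, as were 10.5% of all genes tested. Their median log2 fold change was 1.17, and none was called in edgeR, against 0.254% of all genes in either direction. Endothelial and mural markers, 3 of 6, summed to 62.6 and 52.0 CPM against 100.1, 75.2 and 94.6 CPM. Of the 3 rows, 1 was called in edgeR, against 0.12% of all genes called higher. It was ANGPT1, a vessel growth factor, which was higher in posterior cells. RGS5, a mural cell marker of the same list, was lower in every posterior library, at 36.2 and 26.9 CPM against 14.6, 11.6 and 9.80 CPM, a log2 fold change of -1.40 (adjusted p = 0.0428 in edgeR). Schwann cell markers, 2 of 5, summed to 58.6 and 54.9 CPM in anterior and 24.3, 24.2 and 17.5 CPM in posterior libraries. Their median log2 fold change was -1.99, and 0 were called in edgeR, against 0.254% of all genes in either direction. Of the muscle markers, 3 of 5 with an identifier, 0 were called in edgeR, against 0.254% of all genes in either direction. They summed to 64.4 and 76.5 CPM against 53.7, 52.7 and 61.8 CPM. That sum is mostly SYNM, with a log2 fold change of -0.77, whereas the median of the list was 1.80. NEBL had 143 and 306 anterior against 813, 940 and 981 posterior counts, and CAV3 had 0 and 1 against 106, 85 and 69. All markers with an identifier come from the study's lists for this contrast, so that their counts are not independent evidence of a direction. The part of these cells in the levels of the Cyp2a rows was not tested.

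Markers of the liver, the main site of CYP2A6 in humans, differed among themselves. F13B, a clotting factor subunit, had a log2 fold change of 2.68 (adjusted p = 0.0109 in edgeR) and C8G, a complement component, one of -1.82 (adjusted p = 0.14). The 4 of 5 with an identifier summed to 278 and 298 CPM in anterior and 397, 358 and 304 CPM in posterior libraries. Their median log2 fold change was -0.02, and 0 were called in edgeR at 0.01, against 0.254% of all genes in either direction. Dermal fibroblast genes were examined as well. They too come from the study's lists for this contrast, so their levels are no test of the sorted cell type. The 8 of 9 dermal fibroblast genes with an identifier summed to 12465 and 13991 CPM in anterior and 8528, 9625 and 9559 CPM in posterior libraries, and FN1 was called higher and POSTN and COL12A1 lower in posterior cells (3 of 8 rows, against 0.254% of all genes in either direction). Most of that sum is POSTN, at 8091 and 9011 CPM against 4538, 5089 and 4671 CPM, and the median log2 fold change of the 8 rows was -0.05. MFAP5, FBLN5 and TNXB were not called, with log2 fold changes between 0.95 and 1.03. DDR2 and COL6A6 were not called either and went the other way, with log2 fold changes of -1.17 and -0.85. Markers without an identifier, among them PRRX1 and KRT14, were not analysed here.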

How the data were processed

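Per the labels and the study's methods, the authors prepared QuantSeq 3′ libraries from sorted cells, ran Trimmomatic 0.39 (reads of at least 40 bases kept), aligned with HISAT2 to AmexG_v6.0-DD, reporting at most 5 alignments for a read, and counted by featureCounts. Versions of the last 2 tools, the strand setting and the treatment of reads with several alignments are not given in the sources used here. The authors deposited raw counts per gene and library, not normalized, and every value starts from those counts. The study compared the positions with DESeq2.

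Counts were filtered by filterByExpr, scaled by TMM and fitted with the position as the only term by edgeR 4.0.16 (quasi-likelihood test, R 4.3.3), with Benjamini-Hochberg adjustment over 20875 genes. The procedure was tested on simulated counts that varied less than these data and were changed only in genes with higher counts. That test therefore does not cover rows with few anterior counts. Alternatives were DESeq2 1.42.0, limma-voom (limma 3.58.1), DESeq2 size factors, library totals, no filter, at least 100 counts in total, the replicate number as a block, a robust fit, each library in turn left out, a false-discovery rate of 0.05, the rows named CYP2A13 summed, and an added count of 0.5 for the likeness of profiles. A standard error (SE) is the size of the log2 fold change divided by the square root of F. The study's methods describe replicates of 8 pooled axolotls. Neither they nor the labels say that these came from different animals. The anterior and posterior pieces of a limb may have entered both groups, so p-values measure only the spread between these libraries.

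Symbols come from the study's gene lists, which pair 283 of 306 identifiers with one. The RefSeq gene table of UKY_AmexF1_1 matched 0 identifiers and holds 0 symbols that begin with CYP2A. No sequences of the rows were used. Genes were named if they are Cyp2a rows, are rows of the identifier window with a symbol or past the threshold, carry a CYP symbol, belong to the enzyme list, or are among the 3 named genes with the nearest profile. Unnamed rows of the window and single markers were picked for the text after their values were seen. The members, lists and tests were chosen with earlier results of these data known.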

Additional observations from a re-analysis of the deposited data

How the results depend on the processing

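Of the 4 Cyp2a rows, 1 was past the threshold in edgeR, and also with limma-voom, DESeq2 size factors and library totals. The count was 4 with DESeq2 or without the filter, 2 with at least 100 counts in total, 3 in a robust fit, with the replicate block or at a rate of 0.05, and 0 to 3 with a library left out. Of the neighbouring rows 0 passed, against 1 with DESeq2, without the filter, in a robust fit, with the replicate block or at 0.05, and 0 to 1 with a library left out. Over all genes, 53 passed, against 292 with DESeq2, 337 without the filter, 103 in a robust fit, 130 with the replicate block, 127 at 0.05 and 2 (without posterior replicate 2) to 62 with a library left out. The cause was not tested.

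With a library left out, the log2 fold change ran from 6.65 to 10.10 for AMEX60DD008880, from 1.60 to 2.25 for AMEX60DD008883, from 4.58 to 8.03 for AMEX60DD008884, from 3.02 to 4.04 for AMEX60DD008885 and from 1.94 to 2.57 for the sum. With both CYP2A13 rows summed, it was 2.09 in place of 5.42 for AMEX60DD008884, since most counts come from the other row. Where an anterior library was left out, the remaining one was assumed to vary like the posterior ones. The labels do not say that a replicate number marks shared animals, so the block was not used for the main values. The differences between replicates 1 and 2 at both positions correlated across 20875 genes with r = -0.03. With a single such difference per position, this value cannot show whether replicates were paired. No fold change reversed. Depth limits the anterior levels of AMEX60DD008880 and AMEX60DD008884, where a library held as few as 0 and 2 counts.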
